A study of Mus musculus with 15 samples.

Results

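Granulocyte-macrophage progenitors (GMPs) carrying the p30 allele of Cebpa were compared with GMPs carrying the BRM2 allele, across all genes. The comparison took the 3 arrays titled GMP fl/p30 and the 3 titled GMP fl/BRM2, which are 6 of the 15 arrays of the series, and covered 19937 genes. All mice were female C57BL/6 and carried Mx1Cre, a Cre recombinase driven by the interferon-inducible Mx1 promoter, so that deletion reaches interferon-responsive cells in general and not myeloid cells alone. The fl/p30 mice (Cebpa fl/p30; Mx1Cre) and the fl/BRM2 mice (Cebpa fl/BRM2; Mx1Cre) each had 1 floxed Cebpa allele beside the mutant one, and the control GMPs (fl/+; Mx1Cre, 3 arrays) had 1 floxed allele beside a wild-type one. Marrow was taken 3 weeks after the conditional knockout, cells were enriched for cKit, and GMPs were sorted as the cKit+ and FcgRII+ cells that lacked lineage markers, Sca1, CD150 and CD41. The labels give each array of a group its own animal number, so the spread below is between mice. Age is not given in the labels. PreGMs, the less mature progenitors of the same series, are quoted in places. The preGM fl/p30 arrays came from the same 3 mice as the GMP fl/p30 arrays, and the preGM +/+ arrays from 3 other mice.

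C/EBP alpha, the product of Cebpa, is a basic leucine zipper transcription factor that binds DNA as a dimer and is needed for the formation of GMPs and of granulocytes. Its messenger RNA is translated into a long protein, p42, and into a shorter one, p30, which starts at an internal site and lacks the N-terminal part that activates transcription and restrains the cell cycle. The p30 allele makes only the short form. The BRM2 allele makes a full-length protein with a mutated basic region, described as impaired in the repression of E2F, the family of factors that switches on genes for DNA replication. Both alleles are used as mouse models of events that precede acute myeloid leukaemia. The comparison asks whether the 2 kinds of mutation leave different expression in the same sorted population.

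At the precision of 3 mice per allele the profiles differed at 1 gene. Tox, which encodes an HMG-box chromatin protein known for its role in T cell and natural killer (NK) cell development, was higher with p30. It was the single gene of 19937 (0.00502%) with an adjusted p under 0.05 (limma with Benjamini-Hochberg adjustment over all genes, the threshold used throughout), and 0 genes (0%) were called lower. At an unadjusted p under 0.05 there were 465 genes higher with p30 (2.33%) and 223 lower (1.12%), together 3.45% of all genes. Values are log2 expression, differences are log2 differences of fl/p30 minus fl/BRM2, and ± is the standard error (SE) unless stated. The median absolute difference over all genes was 0.0907, and 36 genes (0.181%) differed by at least 1, 16 of them higher with p30 (0.0803%) and 20 lower (0.1%).

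The absence of calls does not show that the alleles act alike, and the 95% intervals say how large a difference could have stayed unseen. The median half-width of the interval was 0.314, and for 19191 genes (96.3%) the whole interval lay between -1 and 1. Among the 10331 genes above the array medians with both alleles, 9770 (94.6%) had such an interval. Against the same fl/+ arrays, 1209 genes (6.06%) were called for p30 and 505 (2.53%) for BRM2, with median absolute differences of 0.152 and 0.13. These comparisons share their control arrays, so their values are given side by side below and not correlated. In the plot of mean levels the genes lie close to the line of equal level.

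**Figure D1:**
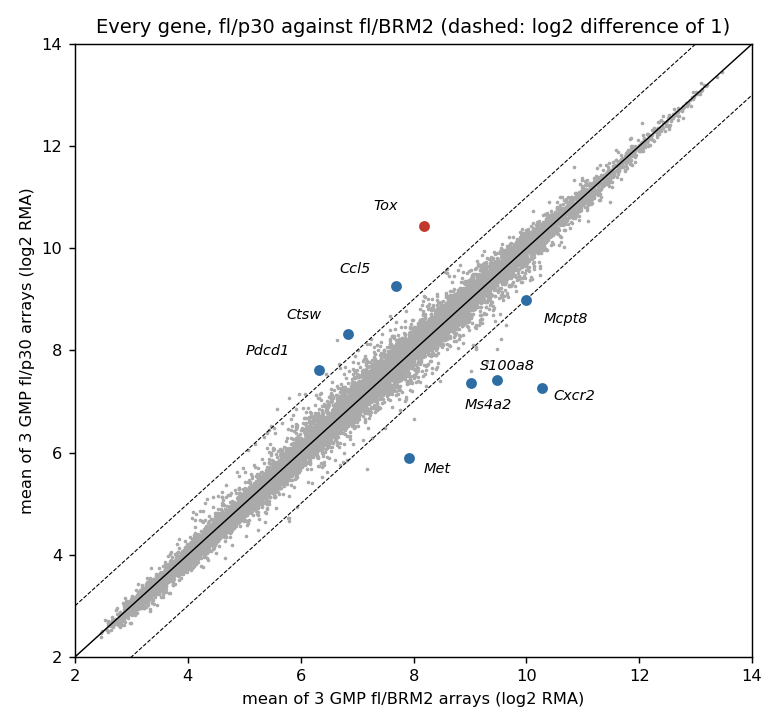
Each point is 1 of 19937 genes, with the mean log2 level of the 3 GMP fl/BRM2 arrays on the horizontal axis and of the 3 GMP fl/p30 arrays on the vertical axis. The solid line marks equal levels and the dashed lines a log2 difference of 1, which 36 genes reached; Tox (red) was the only one with an adjusted p under 0.05, and the blue points are other genes described in the text.

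The arrays of the mutants were not equally alike. Across genes, the fl/BRM2 arrays correlated at 0.988 to 0.993 with each other. In fl/p30, replicates 2 and 3 correlated at 0.992, replicates 1 and 2 at 0.984 and replicates 1 and 3 at 0.975, so that replicate 1 stood apart. Taken over all genes, the standard deviation (SD) between mice of 1 group had a root mean square of 0.269 with p30, 0.195 with BRM2 and 0.319 in the control. Several list medians and gene differences are therefore given also without fl/p30 replicate 1. Of the markers fixed for the check of the gate, 5 of 5 primary granule markers (Mpo, Elane, Prtn3, Ctsg and Ms4a3) lay above the array median on all 6 arrays. The medians of the 6 arrays were 6.06 to 6.15, and a gene below them is near background. Also above the median on all 6 arrays were 3 of 6 monocyte and dendritic markers and 4 of 5 mast cell and basophil markers (Cpa3, Mcpt8, Ms4a2 and Fcer1a). The same held for 3 of 3 measured erythroid, 2 of 3 measured megakaryocyte and 2 of 4 T and NK markers, but for 0 of 5 late neutrophil markers. In the eosinophil, stem, B, macrophage, and stroma and endothelium sets it was 1 of 3 measured each. Levels above the median thus did not single out 1 lineage.

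Cebpa itself, measured first because both alleles change it, read 8.68, 9.22 and 9.31 in fl/p30 replicates 1 to 3 and 8.59, 8.48 and 8.86 in fl/BRM2. The ranges overlapped at the lower end. The difference was 0.42 ± 0.18 with a 95% interval of 0.04 to 0.81 and an adjusted p of 1 (limma). No difference in Cebpa message between the alleles passed the test. The control arrays read 8.70, 8.10 and 8.34. Against them Cebpa was higher by 0.69 with p30 (adjusted p 0.0367, limma), which passed. With BRM2 it was higher by 0.27 (adjusted p 0.562), which did not. Where the probes lie relative to the floxed part is not given in the sources used here, and the probe set does not tell the mutant alleles from each other, so it does not check the labels. The genes of the sort gate and related surface markers were also close. Kit, the stem cell factor receptor, differed by 0.29, Fcgr3 by -0.09, Fcgr2b by -0.02, Itga2b by 0.06, Slamf1 by -0.20, Eng by 0.04 and Cd34 by 0.19. Eng and Cd34 are not in the gate as described above, and no Sca1 gene is among the 7. All 7 intervals lay between -1 and 1 (96.3% of all genes), and none of the 7 had an unadjusted p under 0.05 (3.45% of all genes).

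Tox read 10.94, 10.58 and 9.80 in fl/p30 replicates 1 to 3 and 7.45, 8.51 and 8.60 in fl/BRM2. The control arrays read 6.35, 6.60 and 6.07. Every fl/p30 array was above every fl/BRM2 array, and every fl/BRM2 array above every control array. The difference between the alleles was 2.25 ± 0.30 (95% interval 1.61 to 2.89), or 4.76-fold, with an adjusted p of 0.0482 (limma). Against the control Tox was higher by 4.10 with p30 (adjusted p 5.2e-06) and by 1.85 with BRM2 (adjusted p 0.00444). In preGMs it read 10.55, 10.33 and 10.22 with p30 and 7.93, 7.50 and 7.71 in wild type. The call is close to the threshold: Tox passed in 9 of 19 other settings and missed in 10. Those 10 included the limma fit of the 6 arrays alone (adjusted p 0.891) and the fits that left out any 1 of the 6 arrays other than fl/p30 replicate 3 (adjusted p 0.07 to 0.23). Its difference stayed between 1.88 and 2.57 in all of them except the test of all probe sets singly, for which only the count was taken.

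The other genes that stood highest with p30 did not pass the test, and several are known from T and NK cells. Pdcd1, which encodes the inhibitory receptor PD-1, read 7.67, 7.94 and 7.22 with p30 and 6.48, 6.31 and 6.21 with BRM2. The BRM2 arrays lay at the level of the control (0.06 above it), and the difference between the alleles was 1.28 ± 0.19 (adjusted p 0.0809, limma). Ccl5, a chemokine of T and NK cells, read 9.55, 9.05 and 9.17 with p30 and 7.22, 7.77 and 8.08 with BRM2, a difference of 1.57 ± 0.27 (95% interval 0.99 to 2.14, adjusted p 0.134). Ctsw, a cathepsin of cytotoxic lymphocytes, read 8.74, 8.53 and 7.71 against 6.37, 7.27 and 6.88 (1.48 ± 0.28, adjusted p 0.198). In each of these genes the arrays of the alleles did not overlap.

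Pgam2, the muscle form of phosphoglycerate mutase, read 7.47, 6.99 and 6.99 with p30 against 5.82, 5.95 and 6.12 (1.19 ± 0.19, adjusted p 0.112). Uchl1, a ubiquitin hydrolase, read 7.74, 7.65 and 7.21 against 6.17, 6.56 and 6.61 (1.09 ± 0.21, adjusted p 0.198). Jup, the junction protein plakoglobin, read 7.63, 8.27 and 7.42 against 6.84, 7.12 and 6.83 (0.84 ± 0.17, adjusted p 0.264). The remaining 3 of the 10 genes ranked highest were Mcoln3, an ion channel of lysosomes (1.28), Txk, a Tec family kinase of T cells (0.69), and Zfp105 (0.56). Their adjusted p-values were 0.198 for Mcoln3 and 0.264 for Txk and Zfp105 (limma).

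**Figure D2:**
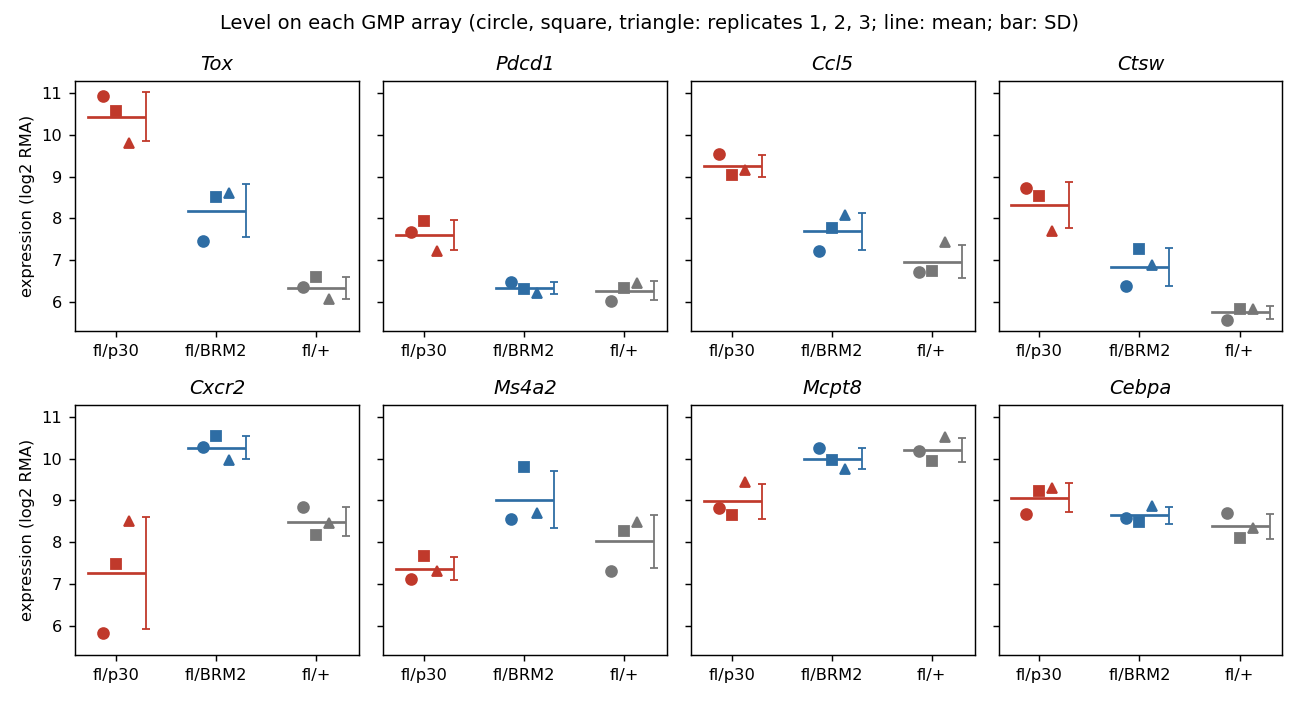
Log2 level of 8 genes on each GMP array, for fl/p30 (red), fl/BRM2 (blue) and fl/+ (grey); symbols are replicates 1, 2 and 3, the horizontal line is the mean and the bar its SD (n = 3). The fl/p30 and fl/BRM2 arrays do not overlap in 7 of the genes and overlap for Cebpa, and in Cxcr2 the fl/p30 arrays spread from 5.83 to 8.50.

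Among genes lower with p30, the largest difference was in Cxcr2, the receptor by which neutrophils follow CXC chemokines. It read 5.83, 7.47 and 8.50 with p30, 10.28, 10.55 and 9.98 with BRM2, and 8.85, 8.17 and 8.46 in the control. The control arrays lay between the alleles, apart from the highest fl/p30 array, which was within the control range. The difference was -3.00 ± 0.47 with an adjusted p of 0.0997 (limma), and the 95% interval reached down to -4.01. Against the control, Cxcr2 differed by -1.23 with p30 (adjusted p 0.151) and by 1.78 with BRM2 (adjusted p 0.0645), and neither passed. Without fl/p30 replicate 1, the lowest array, the difference between the alleles was -2.29. In preGMs Cxcr2 read 6.85, 7.50 and 7.02 with p30 and 10.19, 10.20 and 9.49 in wild type. There it fell by 2.84 with p30 (adjusted p 0.007, limma).

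No gene of the mast cell, basophil and eosinophil list was called. Ms4a2, the beta chain of the high-affinity IgE receptor, read 7.11, 7.66 and 7.32 with p30 and 8.56, 9.80 and 8.69 with BRM2, and Mcpt8, a basophil protease, read 8.83, 8.66 and 9.45 against 10.26, 9.98 and 9.76. Both sets of arrays were apart, by -1.65 ± 0.32 (adjusted p 0.213) and -1.02 ± 0.20 (adjusted p 0.198, limma). Fcer1a, the alpha chain of the same receptor, lay the other way at 9.80, 8.76 and 7.48 against 7.37, 7.67 and 7.70, with overlapping arrays (1.10, 95% interval 0.02 to 2.19). That difference was 0.54 without fl/p30 replicate 1. Prg2, an eosinophil marker, differed by -1.41 (95% interval -3.14 to 0.33) with overlapping arrays, and by -0.41 without fl/p30 replicate 1. Cpa3, the mast cell carboxypeptidase, differed by 0.09 and Slc18a2, a monoamine transporter, by -0.05. Of the 23 measured genes of the mast cell, basophil and eosinophil list, 0 were called and the median was 0.09. At an unadjusted p under 0.05, 2 were higher and 2 lower (2.33% and 1.12% of all genes).

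The other genes ranked lowest with p30 were mostly dim. Spin4 (-0.94, adjusted p 0.129), Mrgpra1 (-0.84, adjusted p 0.198), Igfbp7 (-0.76, adjusted p 0.198), Gpc4 (-1.07, adjusted p 0.198) and Cd200r4 (-1.14, adjusted p 0.423) lay near background with p30, so no fold is given. Ifitm3, an interferon-induced membrane protein, was bright and tightly replicated: 10.96, 10.85 and 10.90 with p30 against 11.53, 11.43 and 11.50 with BRM2, a difference of -0.58 ± 0.14 (adjusted p 0.463). Poglut2, a protein O-glucosyltransferase, read 6.28, 6.95 and 7.30 against 7.96, 7.52 and 7.80 (-0.92, adjusted p 0.463, limma).

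Not every large difference came from arrays that were apart. Of the 36 genes that differed by at least 1, the arrays did not overlap in 21 (11 higher with p30 and 10 lower). Over all genes the share was 8.33%. The 36 were picked by size on these same arrays, so a higher share follows from that choice. Without fl/p30 replicate 1, 14 of the 36 still differed by at least 1. Met, the receptor of hepatocyte growth factor, read 4.37, 6.19 and 7.12 with p30 against 8.13, 7.86 and 7.76 (-2.02 ± 0.53, adjusted p 0.756), and -1.26 without that array. Small nucleolar RNA genes made up 7 of the 36, all lower with p30. As a class, 48 of 54 had a negative difference, with a median of -0.36 that was -0.13 without fl/p30 replicate 1. Met was chosen after its values were seen.

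Because the BRM2 mutation was described through E2F, the genes of DNA replication were examined as a group, and the next set of genes in the cell cycle, those of G2 and mitosis, beside it. Promoter sequences of 2 kinds are shown to make the groups concrete, since replication genes are known for E2F sites and mitotic genes for the cell cycle homology region (CHR). The sequences are from RefSeq (GRCm38.p6), each a 30-base stretch printed 5′ to 3′ on the gene's strand. The first 4 have an E2F word or its reverse complement in capitals, and the last 4 the CHR word TTTGAA or its reverse complement. Only 1 match per stretch is in capitals, and in the Mcm5 stretch another E2F match overlaps the marked one.
Mcm5, chr8:75109345-75109374, plus strand: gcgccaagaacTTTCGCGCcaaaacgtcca
Mcm6, chr1:128359734-128359763, minus strand: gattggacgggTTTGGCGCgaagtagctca
Cdc6, chr11:98908002-98908031, plus strand: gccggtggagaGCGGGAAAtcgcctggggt
Orc1, chr4:108579416-108579445, plus strand: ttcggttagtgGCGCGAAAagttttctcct
Cdc20, chr4:118437343-118437372, minus strand: gacagttgggtTTTGAAggagccaatgaac
Plk1, chr7:122159454-122159483, plus strand: ccagcgccgcgTTTGAAttcggggaggagc
Cdk1, chr10:69352909-69352938, minus strand: accgcggcgagTTTGAAactgctggcactc
Ube2c, chr2:164769889-164769918, plus strand: gagggttgcaaTTCAAAcgcgggcggcggc
The windows searched were 300 bases around gene starts, on both strands, for 15613 genes. An E2F word (TTTCGCGC, TTTGGCGC, TTTCCCGC or TTTGCCGC, which can overlap each other) was in 13 of 32 replication genes with a window (40.6%), in 1 of 25 mitotic genes (4%) and in 3.48% of all genes. TTTGAA was in 17 of 25 mitotic genes (68%), in 3 of 32 replication genes (9.38%) and in 17.3% of all genes. The C/EBP word TTNNGCAA was in 3 of 32 replication genes (9.38%), 0 of 25 mitotic genes and 11.3% of all genes. Of the 10 genes ranked highest with p30, 1 of the 7 with a window held TTNNGCAA (14.3%), and of the 10 ranked lowest, 1 of 10 (10%). A match describes the letters only.

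No difference between the alleles was called among E2F targets and S phase genes. Of 36 measured members, 0 were called and 0 had an unadjusted p under 0.05 in either direction, against 3.45% of all genes, and the median was -0.13. For 33 of 36 the 95% interval lay between -1 and 1, as it did for 96.3% of all genes. Mcm6, a subunit of the replicative helicase, read 10.73, 11.16 and 11.14 with p30 and 10.96, 11.12 and 11.16 with BRM2, a difference of -0.07 (95% interval -0.37 to 0.23). Its partner Mcm5 differed by -0.26 (-0.76 to 0.25). Cdc6, which loads that helicase, differed by -0.03 (-0.45 to 0.39), and Pcna, the sliding clamp of DNA polymerase, by 0.02 (-0.28 to 0.31). The members furthest apart were Rfc4, a clamp loader subunit (-0.49, 95% interval -1.20 to 0.21, and -0.07 without fl/p30 replicate 1), and Rrm2, a ribonucleotide reductase subunit (-0.38, -0.84 to 0.07). The sign of the median turned with 1 array: 30 of 36 members were negative on all arrays, but without fl/p30 replicate 1 the median was 0.10 and 26 were positive.

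No difference was called among the E2F proteins and their regulators. All 27 measured E2F and DP factors, pocket proteins, cyclins and inhibitors had an interval between -1 and 1 (96.3% of all genes). Of the 27, 0 had an unadjusted p under 0.05 (3.45% of all genes), and the median was -0.03. Both counts are near the shares over all genes. E2f1 read 7.05, 7.11 and 7.35 with p30 and 7.22, 7.02 and 7.06 with BRM2 (0.07, 95% interval -0.21 to 0.36). Rbl2, the pocket protein p130, had the largest difference of the list, 0.32 (-0.02 to 0.66), and Cdkn1b, the cyclin-dependent kinase inhibitor p27, the most negative, -0.27 (-0.82 to 0.28), though another probe set of Cdkn1b differed by 0.00. Against the control, Rbl2 was higher with both alleles, by 1.18 (adjusted p 0.000541) and 0.86 (adjusted p 0.00931, limma).

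All 31 measured genes of G2 and mitosis had a negative difference, with a median of -0.49 beside -0.01 over all genes, but 0 were called. At an unadjusted p under 0.05, 10 were lower and 0 higher (1.12% and 2.33% of all genes). In 13 the fl/p30 arrays lay below all fl/BRM2 arrays, against 3.66% of all genes. Cdc20, the activator of the anaphase-promoting complex, read 7.70, 9.22 and 9.15 with p30 and 9.59, 9.34 and 9.29 with BRM2 (-0.71 ± 0.33, 95% interval -1.42 to -0.01, adjusted p 1, limma). Replicates 2 and 3 of fl/p30 sat just under the fl/BRM2 arrays and replicate 1 far under them. Plk1, a mitotic kinase, read 7.83, 8.94 and 8.89 against 9.12, 9.14 and 9.26 (-0.63, -1.16 to -0.10), and Ttk, a spindle checkpoint kinase, 7.57, 8.74 and 9.01 against 8.95, 9.03 and 9.33 (-0.66, -1.43 to 0.10). Without fl/p30 replicate 1 the differences were -0.22 for Cdc20, -0.27 for Plk1 and -0.23 for Ttk. The list level, taken as the mean over members of each value minus the gene's own mean over 15 arrays, was -0.89, -0.04 and 0.02 with p30, 0.08, 0.22 and 0.21 with BRM2, and 0.38, -0.19 and 0.07 in the control. Without fl/p30 replicate 1 the median was -0.20, 30 of 31 differences were still negative, and 0 had an unadjusted p under 0.05. Without fl/p30 replicate 3 it was -0.63 and 19 had one. The preGM array whose label carries the same animal number was also the lowest of its group, with a list level of -0.50 against -0.04 and -0.03. For S phase genes the preGM levels were -0.40 for that array against -0.01 and -0.07, and for small nucleolar RNA genes -0.53 against 0.50 and 0.49. Granule genes, also lowest in fl/p30 replicate 1 among the fl/p30 GMP arrays, did not follow in preGMs. There that array read -1.23 against -1.25 and -1.49 for primary granule genes. For secondary granule and neutrophil genes it read -0.70 against -0.76 and -0.64.

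Genes of Myc and ribosome biogenesis showed the same array apart: 28 of 30 were negative, with a median of -0.17 that was -0.01 without fl/p30 replicate 1. Srm, the spermidine synthase, read 8.86, 9.90 and 10.14 against 10.53, 9.52 and 10.06 (-0.40, 95% interval -1.02 to 0.21, and -0.02 without that array). For 29 of the 30 the interval lay between -1 and 1 (96.3% of all genes). All 30 genes of oxidative phosphorylation and all 22 p53 targets had such an interval, with medians of -0.05 and 0.00.

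**Figure D3:**
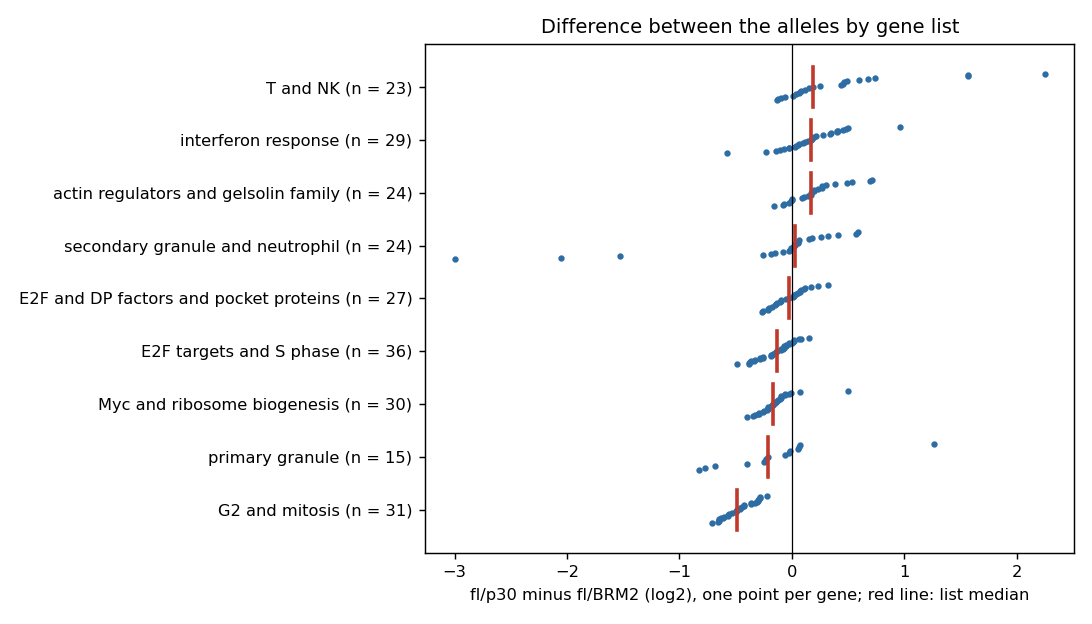
Each blue point is the log2 difference fl/p30 minus fl/BRM2 of 1 gene, grouped by list, with the number of measured genes in brackets and the list median as a red line. All 31 genes of G2 and mitosis lie left of 0 (median -0.49), and the T and NK list reaches from -0.13 to 2.25.

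T and NK cell genes tended the other way. Of 23 measured members, 1 was called (Tox), and the median was 0.19. At an unadjusted p under 0.05, 10 were higher and 0 lower (2.33% and 1.12% of all genes). In 7 the arrays did not overlap (4.67% of all genes were so in this direction). The list holds Tox and was chosen with earlier results of these data known. Its counts and its list level are therefore not independent evidence. The list level was 0.66, 0.51 and 0.39 with p30, -0.02, 0.17 and 0.13 with BRM2 and -0.57, -0.38 and -0.43 in the control, so the fl/p30 arrays were the highest and did not overlap the others. Klrb1b, an NK cell lectin receptor, read 9.30, 7.78 and 7.53 against 6.32, 6.66 and 6.95 (1.57, 95% interval 0.81 to 2.32, adjusted p 0.426, limma), and the difference was 1.02 without fl/p30 replicate 1. Klrd1 (0.60), Il2rb (0.49), Cd3g (0.68) and Cd3d (0.74) also had an unadjusted p under 0.05, at levels near or below the array medians. Cd3d differed by 0.20 without fl/p30 replicate 1. The shift did not run through the list: Gzmb, granzyme B, read 12.36, 11.88 and 11.55 against 11.50, 12.22 and 11.71 (0.12, -0.47 to 0.71), Nkg7 differed by 0.01, and Cd3e, the CD3 epsilon chain, read 6.26, 6.10 and 6.14 against 6.39, 6.23 and 6.28 (-0.13, -0.36 to 0.10). Of the fixed T and NK markers, Cd3g and Klrb1c were below the median on all 6 arrays. In bulk RNA, more cells of a type and more RNA per cell cannot be told apart.

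**Figure D4:**
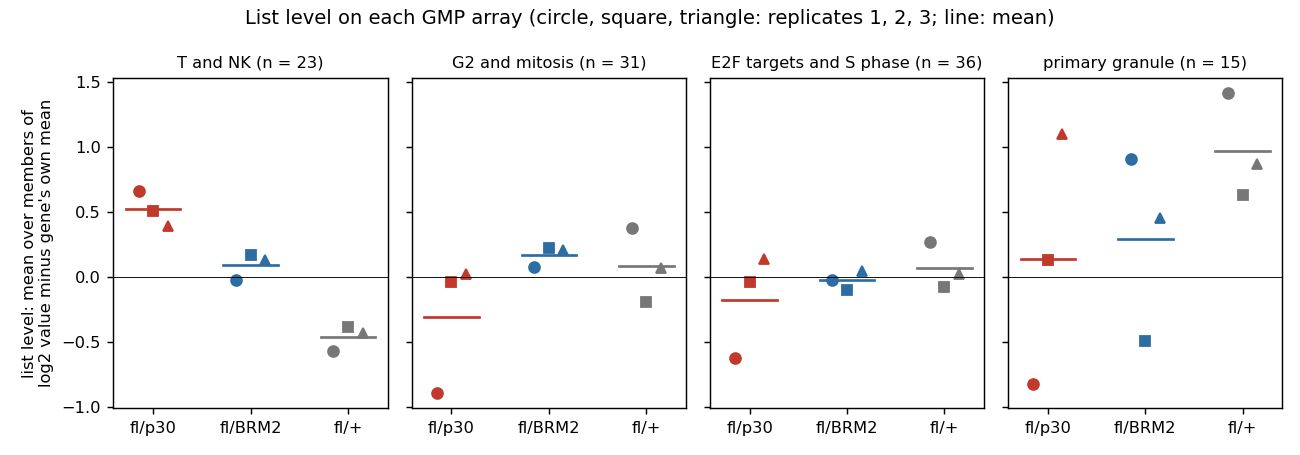
List level on each GMP array for 4 gene lists, in log2 units relative to each gene's mean over the 15 arrays; symbols are replicates 1, 2 and 3 of fl/p30 (red), fl/BRM2 (blue) and fl/+ (grey), and lines are means. The fl/p30 arrays are highest for T and NK genes, fl/p30 replicate 1 is lowest for G2 and mitosis (-0.89), and primary granule genes spread from -0.82 to 1.10 within fl/p30.

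Of 23 cytokine and growth factor receptors, 13 differences were positive and 10 negative, and the median was 0.05. At an unadjusted p under 0.05, 5 were higher and 2 lower (2.33% and 1.12% of all genes). Il7r, the interleukin-7 receptor chain, read 6.40, 6.05 and 6.05 against 5.11, 5.13 and 5.32 (0.98 ± 0.27, adjusted p 0.932), and Il18r1, the interleukin-18 receptor, 6.61, 6.23 and 6.10 against 5.25, 5.68 and 5.13 (0.96 ± 0.26, adjusted p 0.827, limma). These arrays did not overlap but lay near or below the array medians. Receptors of the myeloid growth factors were close: Csf3r, for G-CSF, differed by 0.03 (95% interval -0.68 to 0.74), Csf2ra, for GM-CSF, by 0.10 (-0.47 to 0.67) and Csf1r, for M-CSF, by 0.17 (-0.82 to 1.16).

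Granule genes differed widely among mice of the same allele. Elane, neutrophil elastase, read 6.47, 8.99 and 10.85 with p30, and 10.59, 7.35 and 9.56 with BRM2. Replicate 3 of fl/p30 and replicate 1 of fl/BRM2 were high, and replicate 1 of fl/p30 and replicate 2 of fl/BRM2 low. The difference was -0.40 ± 0.86 (0.75 without fl/p30 replicate 1), and its 95% interval of -2.25 to 1.45 leaves changes of several fold in either direction unresolved. Over 15 measured primary granule genes 0 had an unadjusted p under 0.05 (3.45% of all genes). An interval between -1 and 1 was found for 6 of them (96.3% of all genes), and the median was -0.21. That median was 0.22 without fl/p30 replicate 1 and -0.66 without replicate 3. The members furthest apart lay in opposite directions. Mgst1, a microsomal glutathione transferase, read 6.30, 6.80 and 8.09 against 6.52, 4.81 and 6.07 (1.26, -0.10 to 2.63). Hp, haptoglobin, read 6.38, 9.08 and 10.67 against 10.61, 7.93 and 10.07 (-0.83, and 0.34 without fl/p30 replicate 1). Mpo, myeloperoxidase, was tighter: 12.58, 12.86 and 13.09 against 13.02, 12.66 and 12.91 (-0.02, -0.31 to 0.27).

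Late neutrophil genes did not all share 1 pattern over the arrays. Lcn2 read 5.66, 6.22 and 7.41 with p30 and 7.06, 5.85 and 6.48 with BRM2. Ngp read 5.44, 6.0 and 7.47 against 7.19, 5.18 and 6.0. Within each allele Lcn2, Ngp and S100a8 ordered the arrays as Elane did, while Camp, Mmp8 and Ltf did not. S100a8, a calprotectin subunit, read 4.85, 6.87 and 10.54 with p30 and 11.27, 7.80 and 9.34 with BRM2 (-2.05 ± 1.08, 95% interval -4.36 to 0.27), with overlap. The difference was -0.76 without fl/p30 replicate 1, -3.61 without fl/p30 replicate 3 and -1.15 without fl/BRM2 replicate 1. Of 24 secondary granule and neutrophil genes, 0 were called and the median was 0.03. At an unadjusted p under 0.05, Padi4, an arginine deiminase of neutrophils, was higher (0.59) and Cxcr2 lower (2.33% and 1.12% of all genes). Cebpe, the C/EBP factor of late granulocytes, differed by 0.01 (-1.01 to 1.02). Mmp8, a neutrophil collagenase, was highest in fl/p30 replicate 1, at 7.09 against 5.43 to 5.58 on the other arrays. Ltf, the granule protein lactoferrin, was below the array median on all 6 arrays.

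Monocyte and dendritic genes showed no common direction: 11 of 26 differences were positive and 15 negative, with a median of -0.07. At an unadjusted p under 0.05, 3 were higher and 0 lower (2.33% and 1.12% of all genes). The arrays did not overlap in 2 genes in each direction (4.67% of all genes higher and 3.66% lower). Itgax, the integrin CD11c, read 7.84, 8.25 and 7.58 against 6.57, 7.37 and 6.95 (0.92 ± 0.20, adjusted p 0.402, limma), and Ccr2, the receptor for monocyte chemokines, 9.68, 9.45 and 9.45 against 8.72, 8.78 and 9.13 (0.65, 95% interval 0.16 to 1.15). In both the arrays did not overlap. Id2, an inhibitor of basic helix-loop-helix factors, read 10.45, 8.96 and 9.38 against 7.90, 9.19 and 8.67, with overlap (1.01, 0.10 to 1.92, and 0.58 without fl/p30 replicate 1). Irf8, the interferon regulatory factor of the monocyte fate, differed by -0.28 (-0.91 to 0.36).

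No gene of the erythroid and megakaryocyte lists was called. Of 21 erythroid genes 20 had an interval between -1 and 1, near the 96.3% of all genes. Of the 21 differences 16 were negative and 5 positive, and the median was -0.09. Tfrc, the transferrin receptor, was the one with an unadjusted p under 0.05, in the lower direction (1.12% of all genes). It read 9.74, 9.55 and 9.89 against 10.56, 9.97 and 10.15 (-0.50 ± 0.14). Gata1 differed by -0.15. Of 14 megakaryocyte genes 0 had an unadjusted p under 0.05 (3.45% of all genes), and the median was 0.05.

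The genes known to separate both mutants from the control on these arrays were compared last. The list of 14 raised genes was chosen from earlier results of the same arrays, so its direction against the control is no independent evidence. The counts between the alleles rest on the same arrays and are no independent evidence either. Between the alleles 1 of 14 was called, and it was Tox, already described above. At an unadjusted p under 0.05, 4 were higher with p30 and 0 lower (2.33% and 1.12% of all genes), and the median was 0.27. That median was 0.03 without fl/p30 replicate 1, -0.04 without fl/BRM2 replicate 1 and 0.56 without fl/p30 replicate 3. Scin, an actin-severing protein of the gelsolin family, read 11.74, 11.35 and 10.91 with p30 and 10.39, 11.22 and 10.93 with BRM2, against 5.85, 6.01 and 6.52 in the control. The alleles overlapped (0.49, 95% interval 0.00 to 0.98, and 0.28 without fl/p30 replicate 1), and both were far above the control, by 5.21 and 4.72. Prkca, a protein kinase C isoform, differed by 0.65 (0.03 to 1.27, and 0.32 without that array), Angpt1, a ligand of the Tie2 receptor, by 0.33 (-0.23 to 0.88), and Il6 by 0.26 (-0.68 to 1.21). Of the 15 lowered genes, chosen in the same way, 0 had an unadjusted p under 0.05 (3.45% of all genes). An interval between -1 and 1 was found for 1 of them (96.3% of all genes). The median was -0.31. Its sign turned with 1 array: the median was 0.04 without fl/p30 replicate 1 and -0.75 without fl/p30 replicate 3.

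Of 24 actin regulators and gelsolin family members, 5 were higher and 0 lower at an unadjusted p under 0.05 (2.33% and 1.12% of all genes). The arrays did not overlap in 7, all higher with p30 (4.67% of all genes), and the median was 0.17. Svil, supervillin, which links actin to the membrane, differed by 0.53 ± 0.12 (95% interval 0.27 to 0.78), and its arrays did not overlap. Lsp1, an actin-binding protein of leukocytes, read 10.05, 10.03 and 9.77 against 8.94, 9.48 and 9.30 (0.71, 0.00 to 1.42). Gsn, gelsolin, differed by 0.14 (-0.15 to 0.42). None of these passed after adjustment.

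Interferon response genes were examined because Mx1Cre is induced through interferon. Of 29 members, 5 were higher and 1 lower at an unadjusted p under 0.05 (2.33% and 1.12% of all genes). The median was 0.17, and 25 had an interval between -1 and 1 (96.3% of all genes). Usp18, which dampens interferon signalling, read 8.38, 8.63 and 7.37 against 6.68, 7.68 and 7.14, with overlap (0.96, 95% interval 0.31 to 1.61), and Mx1 differed by -0.11 (-0.50 to 0.29). The median was 0.01 without fl/BRM2 replicate 3 and 0.25 without fl/BRM2 replicate 2.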

How the data were processed

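The authors deposited a table on the log2 scale, made from 1-colour arrays with RMA (background correction, quantile normalization, probe set summary) in affy, per the submitters' processing notes. No version or filter is stated in the sources used here. Per the labels' protocols, 20 ng of RNA was amplified. Arrays have no read depth; 3 per group limit the precision.

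Of 34760 probe sets, 21640 had 1 symbol in the platform annotation, 1321 several, and 11799 are unnamed here; 21553 matched RefSeq by Entrez ID. The brightest probe set over 15 arrays stood for each of 19937 genes (954 had several). Group means of all 5 groups were fitted with limma 3.58.1 (R 4.3.3; eBayes with no trend; degrees of freedom 10 residual plus 4.24 prior), with Benjamini-Hochberg adjustment over all genes, and checked on simulated data. The shared spread estimate suits groups of unequal spread less well. The fit treated the preGM and GMP fl/p30 arrays of the same 3 mice as independent. With the animal as a random block, 1 gene was called higher with p30 and 0 lower. An exact permutation test of 3 against 3 cannot go below 0.1.

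Members and the 35 lists (764 of 834 entries measured) were chosen with earlier results of these data known. Named genes were Cebpa, the sort gate genes, called genes with non-overlapping arrays filled to 10 per direction by unadjusted p (clones, predicted, small nucleolar and microRNA genes left out), and in each list up to 4 called members, otherwise the 2 furthest apart; other members named were chosen after their values were seen. Not every gene picked by this rule is printed. Same-numbered replicates come from different mice and do not pair. Alternatives covered arrays used, weights, prior, filters, probe sets, scaling and blocks.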

Additional observations from a re-analysis of the deposited data

How the results depend on the processing

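The count of called genes is fragile. As fitted it was 1 higher and 0 lower with p30. It was 0 and 0 with the 6 arrays alone, the 9 GMP arrays alone, all probe sets tested singly and repeated quantile normalization. Leaving out one replicate in turn gave 0 to 10 genes higher and 0 to 2 lower: 0 in each of 5 cases, and 10 and 2 without fl/p30 replicate 3. Array weights gave 211 higher and 72 lower, with fl/p30 replicate 2 weighted at 6.02; moderation with trend and robust gave 2 higher; median centring gave 2 higher; housekeeping centring gave 1 lower beside 1 higher. Where 0 genes were called by limma, 451 (without fl/BRM2 replicate 1) to 1026 (all probe sets) had an unadjusted p under 0.05.

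With the replicate number as a block (6 arrays) 0 genes were called, with 712 at an unadjusted p under 0.05. The numbers do not pair the mice: same-numbered residuals correlated at -0.29, 0.0642 and 0.0212. Over all alternatives the named genes gave 1412 values on the same side of the threshold, 38 now past it, 9 no longer past it (all Tox) and 0 reversed; 439 list medians kept within their spread and 16 moved beyond it. No other call changed under the block. Only 3 mice per allele limit every interval; genes below the array medians are near background.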

Other observations

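No gene of the lists of apoptosis regulators and of lipid synthesis enzymes was called between the alleles. Of 19 genes of the Bcl2 family and related inhibitors, 16 had a positive difference, and the median was 0.11. All 19 intervals lay between -1 and 1 (96.3% of all genes). Bcl2, which protects cells from apoptosis, read 10.38, 10.33 and 9.97 with p30 against 9.56, 9.73 and 9.78 with BRM2 (0.54 ± 0.15, limma adjusted p 0.95), and its arrays did not overlap. Of 28 genes of cholesterol and fatty acid synthesis, 0 had an unadjusted p under 0.05 (3.45% of all genes), with a median of 0.04. Against the shared control arrays the medians of that list were 0.48 with p30 and 0.45 with BRM2.

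Among 29 cytokine and chemokine ligands, 2 were higher and 3 lower with p30 at an unadjusted p under 0.05 (2.33% and 1.12% of all genes). The median was -0.06. Ccl6, a myeloid chemokine, read 6.27, 6.53 and 6.65 with p30 against 7.45, 7.12 and 7.04 with BRM2 (-0.72 ± 0.17, limma adjusted p 0.463). Flt3, the receptor tyrosine kinase of early progenitors, read 5.82, 6.04 and 6.47 against 6.55, 6.63 and 6.85 (-0.57, 95% interval -1.16 to 0.03). In both genes the arrays of the alleles did not overlap. Of 24 Hoxa cluster and leukaemia-linked genes, 22 had an interval between -1 and 1 (96.3% of all genes), and the median was -0.01.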
